A study of Homo sapiens with 95 samples.

Results

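The transcriptional response to benzo(a)pyrene (BaP) was examined in AALE cells with a CRISPR knockout of CDKN2A. The 6 samples labelled CDKN2A with BaP or DMSO were taken from the 95 samples of the series, 3 per treatment. They were profiled by sparse full length (SFL) sequencing, a highly multiplexed RNA-seq method in which barcoded samples are pooled before sequencing. AALE is an immortalized human bronchial epithelial line, made with the early region of simian virus 40, whose large T antigen binds the p53 and RB proteins. The knockout cells received 173 µM BaP or the solvent DMSO. The line for comparison was the GFP control line, AALE cells that carried the Cas9-GFP plasmid without a guide RNA. It received the same 173 µM BaP or DMSO (3 samples each), and its change is printed beside part of the named genes. The duration of exposure, the guide sequence and whether the knockout line was 1 clone are not given in the sources used here. The study describes the samples of a group as biological replicates, and p-values here measure the spread between these samples.

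BaP is a polycyclic aromatic hydrocarbon of tobacco smoke. It binds the aryl hydrocarbon receptor (AhR), which moves to the nucleus with its partner ARNT, binds xenobiotic response elements and induces CYP1 enzymes, and these oxidise BaP to reactive diol epoxides that form bulky DNA adducts. DNA damage activates p53, which induces CDKN1A, while CDKN2A encodes p16INK4A, an inhibitor of CDK4 and CDK6, and p14ARF, which protects p53 from MDM2.

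Between 629626 and 1179828 reads were counted per sample in the knockout line, and between 481230 and 1319161 in the GFP line. A count of 3 reads corresponded to 2.54 to 4.76 CPM, reads per 1000000 counted, in the BaP and DMSO samples of the knockout line. In both lines the shallowest pair of samples were BaP replicates 2 and 3. Of 27978 genes listed, 14428 had a mean count above 1 over the 6 knockout samples and were tested. The basal epithelial markers KRT5, KRT14, KRT17 and TP63 were among 13 of 13 basal markers tested. Their summed level was 6329 to 6725 CPM with BaP and 6531 to 6994 CPM with DMSO. Of 7 fibroblast markers only COL1A1 could be tested (log2 fold change 0.67, adjusted p = 0.0143). COL1A1 was at 0.11 after the GC correction described below (adjusted p = 0.855) and passed in 4 of 6 fits with 1 sample left out, missing it without BaP replicate 3 and without DMSO replicate 1. The markers COL1A2, COL3A1, DCN and LUM were at 0 in all DMSO samples of the knockout line. The summed fibroblast level was 43.2 to 65.1 CPM with BaP and 25.6 to 34.4 CPM with DMSO, and its part in the results was not tested. Of 8 blood and endothelial markers, 5 were at 0 in all BaP samples, and of 9 ciliated and secretory markers SCGB1A1, SCGB3A1, MUC5AC and BPIFA1 were at 0 in all 6 samples. FOXJ1 and MUC5B were at 0 in the DMSO samples only. The summed level of these 9 was 574.7 to 648 CPM with BaP and 418.7 to 432.8 CPM with DMSO, without overlap. TUBB4B, a tubulin, was the member tested and rose by 0.47 (adjusted p = 6.96e-09), or 0.029 after the GC correction. The part of these markers in the results was not tested.

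Reads of the targeted gene, CDKN2A (chr9:21967751-21995300, GRCh37), were present in the knockout line. CDKN2A was counted at 36.9, 39.8 and 46.9 CPM with DMSO and at 49.1, 56.8 and 48.9 CPM with BaP. In the GFP line it was at 81.2, 98.9 and 79.1 CPM with DMSO and at 113, 93.4 and 108 CPM with BaP. All 6 knockout samples thus lay below all 6 GFP samples, which were normalised separately. Reads over a gene do not show whether its protein is intact, and they do not separate the transcripts of p16INK4A and p14ARF. In the knockout line the BaP samples lay above the DMSO samples, with 48.9 against 46.9 CPM at the closest. BaP samples lay above without overlap for 15.7% of all genes tested. The change of CDKN2A with BaP in the knockout line was 0.32 on the log2 scale (SE 0.19, adjusted p = 0.252), and it was 0.31 in the GFP line.

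BaP changed 2686 of the 14428 genes tested at an adjusted p under 0.05 (18.6%, limma-voom, 2-sided, Benjamini-Hochberg over all genes tested). Of these, 1404 rose (9.73% of genes tested) and 1282 fell (8.89%). The median log2 fold change was 0.70 among the genes that rose and -0.45 among those that fell, against 0.01 over all genes tested. More than 2-fold changes were found for 329 of the rising genes and 51 of the falling genes. Among the 10 largest rises that met the naming rule were CYP1A1, CYP1B1, AHRR, ALDH3A1, NMRAL2P, GDF15, OSGIN1, TXNDC5 and FOS. The BaP and DMSO samples did not overlap in log2 CPM for 32.0% of genes tested (BaP higher for 15.7% and lower for 16.3%). In the GFP line, BaP changed 1527 of 13838 genes (11.0%), with 763 rises (5.51%) and 764 falls (5.52%), and the groups did not overlap for 29.0% (13.5% higher and 15.5% lower).

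The direction of change followed the GC content of the transcript in both lines. When coding genes were divided into 5 classes of equal size by GC content, 0.255% of the lowest class (median GC 38.0%) and 35.3% of the highest class (median GC 61.2%) rose in the knockout line. Falls went the other way, with 28.5% of the lowest and 0.0851% of the highest class. The median log2 fold change went from -0.30 in the lowest class to 0.51 in the highest, and in the GFP line from -0.28 to 0.45. The highest class took 15.7%, 17.3% and 16.7% of the coding reads in the BaP samples and 11.2%, 11.9% and 11.6% in the DMSO samples of the knockout line. After a loess correction for GC content and transcript length, 545 of 13545 genes (4.02%) passed the threshold, 227 higher (1.68%) and 318 lower (2.35%), and 390 of the 545 had also passed without it. The part of this trend in the results was not tested, and corrected log2 fold changes are given beside named genes below.

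**Figure D1:**
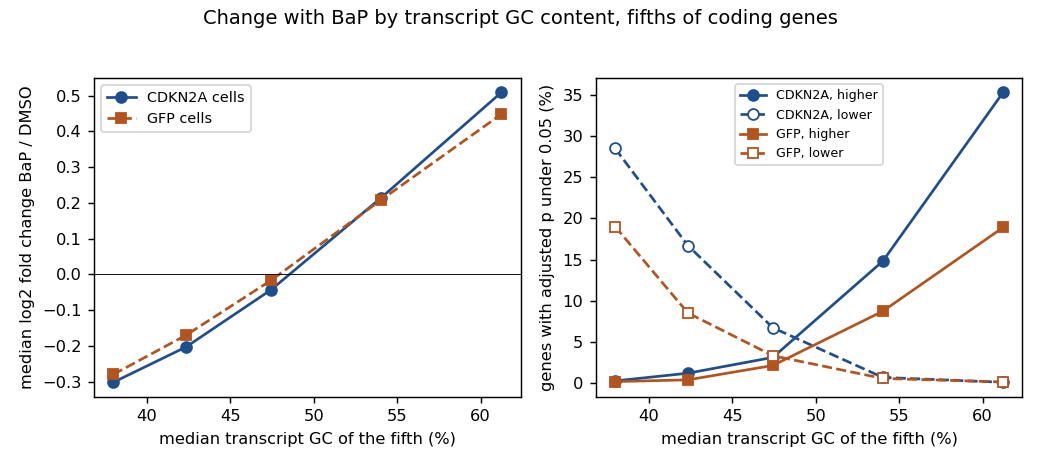
Left, the median log2 fold change of BaP over DMSO for coding genes in each of 5 classes of transcript GC content, against the median GC (%) of the class. Right, the percentage of genes of each class that rose or fell at an adjusted p under 0.05. In both lines the medians rise with GC content, from -0.30 to 0.51 in CDKN2A cells (circles) and from -0.28 to 0.45 in GFP cells (squares).

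The AhR targets are shown first by sequence, since the core of the xenobiotic response element, GCGTG, is the site through which the receptor acts. It was searched on both strands (reverse complement CACGC) in the 250 bases upstream of each start in the RefSeq promoter table (GRCh38.p14). Of the 10 AhR targets that rose, 8 had an entry and 6 of these held the motif in at least 1 window. Of all 35116 windows of the same length, 32.2% held it. The first count is per gene and the second share per window, and a gene can have several windows, so they are not like measures. The windows of CYP1A1, the classical AhR target, and of SLC7A5 and STC2, which rose less, are printed 5′ to 3′ with matches to the motif in capitals. Only risen targets with 1 entry and at least 1 match were considered for printing, so a match in each window was fixed by the choice. The window of CYP1A1 held 1 match, that of SLC7A5 1 and that of STC2 3, 2 of which overlap. A match is a description of these letters only.
CYP1A1 (chr15:74725529-74725778, strand -): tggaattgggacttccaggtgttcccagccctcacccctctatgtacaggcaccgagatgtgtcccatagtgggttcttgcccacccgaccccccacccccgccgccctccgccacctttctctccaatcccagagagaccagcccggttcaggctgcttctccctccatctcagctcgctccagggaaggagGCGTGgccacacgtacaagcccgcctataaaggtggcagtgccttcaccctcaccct
SLC7A5 (chr16:87869508-87869757, strand -): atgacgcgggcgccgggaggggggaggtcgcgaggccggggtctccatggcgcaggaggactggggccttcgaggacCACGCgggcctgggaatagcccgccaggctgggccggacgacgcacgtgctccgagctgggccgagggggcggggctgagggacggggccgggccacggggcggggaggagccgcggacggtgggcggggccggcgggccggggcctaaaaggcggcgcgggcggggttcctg
STC2 (chr5:173328415-173328664, strand -): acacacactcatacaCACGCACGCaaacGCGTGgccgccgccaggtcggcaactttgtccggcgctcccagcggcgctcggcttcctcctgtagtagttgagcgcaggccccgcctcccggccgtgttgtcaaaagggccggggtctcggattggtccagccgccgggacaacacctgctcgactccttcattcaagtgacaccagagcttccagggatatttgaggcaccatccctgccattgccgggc

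AhR target genes rose in CDKN2A knockout cells. Of 14 listed targets, all tested, 10 rose (71.4%, against 9.73% of all genes tested) and none fell. The median log2 fold change of the list was 1.26 (also with CYP1A2 at its bound). The same 10 rose after the GC correction, where 1.68% of all genes tested rose. In the GFP line 7 of 13 tested rose, against 5.51% of all genes tested there. None of the 13 tested for a difference between the lines passed that test.

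CYP1A1 (chr15:75011883-75017877, GRCh37), the main enzyme that activates BaP, was at 18.0, 18.4 and 15.1 CPM in the DMSO samples and at 446, 568 and 358 CPM in the BaP samples. The groups were far apart, and the lowest BaP sample was the shallowest library. The log2 fold change was 4.69 (SE 0.22, adjusted p = 3.3e-40), a 25.8-fold rise. In GFP cells CYP1A1 was at 10.6, 4.75 and 7.76 CPM with DMSO and at 388, 377 and 377 CPM with BaP, a log2 fold change of 5.62. The difference of the changes, knockout minus GFP, was -0.97 (95% interval -1.79 to -0.14 before adjustment, adjusted p = 0.764). The DMSO counts behind it were 5 to 21 reads.

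CYP1B1 (chr2:38294116-38337044), the second CYP1 enzyme of BaP activation, was at 113, 78.6 and 106 CPM with DMSO and at 1040, 961 and 957 CPM with BaP. It rose by 3.32 on the log2 scale (SE 0.10, adjusted p = 1.15e-60), and by 3.63 in GFP cells. The difference was -0.34 (95% interval -0.68 to -0.01 before adjustment, adjusted p = 0.791). CYP1A2, the third CYP1 enzyme, had 0 reads in the 3 DMSO samples and 6, 4 and 1 reads in the BaP samples. With 3 reads over the DMSO group as the floor, it was at least 4.86-fold higher with BaP (adjusted p = 0.00757). CYP1A2 was not tested in GFP cells.

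The feedback inhibitors of AhR signalling rose as well. AHRR, the AhR repressor, was at 0.859, 1.02 and 5.31 CPM with DMSO and at 23.7, 14.2 and 25.2 CPM with BaP. Its log2 fold change was 3.24 (SE 0.59, adjusted p = 1.01e-05), and 3.68 in GFP cells. The DMSO values rested on 1, 1 and 6 reads. TIPARP, a mono-ADP-ribosyltransferase that limits AhR activity, was at 173, 153 and 160 CPM with DMSO and at 346, 338 and 350 CPM with BaP, without overlap. It rose by 1.08 (SE 0.09, adjusted p = 8.29e-19) against 1.48 in GFP cells, and the difference was -0.43 (adjusted p = 0.669).

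Other AhR targets code for detoxifying enzymes and transporters. ALDH3A1, an aldehyde dehydrogenase, was at 19.7, 22.4 and 15.1 CPM with DMSO and at 131, 158 and 125 CPM with BaP. It rose by 2.84 (SE 0.21, adjusted p = 2.51e-23), against 2.27 in GFP cells. NQO1, a quinone reductase that AhR and NRF2 both induce, was at 109, 114 and 107 CPM with DMSO and at 314, 302 and 263 CPM with BaP, and its log2 fold change was 1.43 in both lines. SLC7A5, a large neutral amino acid transporter, rose by 0.78 (SE 0.03), which became 0.26 after the GC correction. STC2, a secreted glycoprotein, rose by 0.66 and EREG, an EGF receptor ligand, by 0.40, which the correction raised to 0.69. In GFP cells STC2 was at 0.44 (adjusted p = 0.0587) and EREG at 0.58 (adjusted p = 0.236). EREG passed in 5 of the 6 fits that left out 1 sample each, and missed it without DMSO replicate 2 (0.34). SERPINB2 had a log2 fold change of 1.48 that missed the threshold (adjusted p = 0.265).

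**Figure D2:**
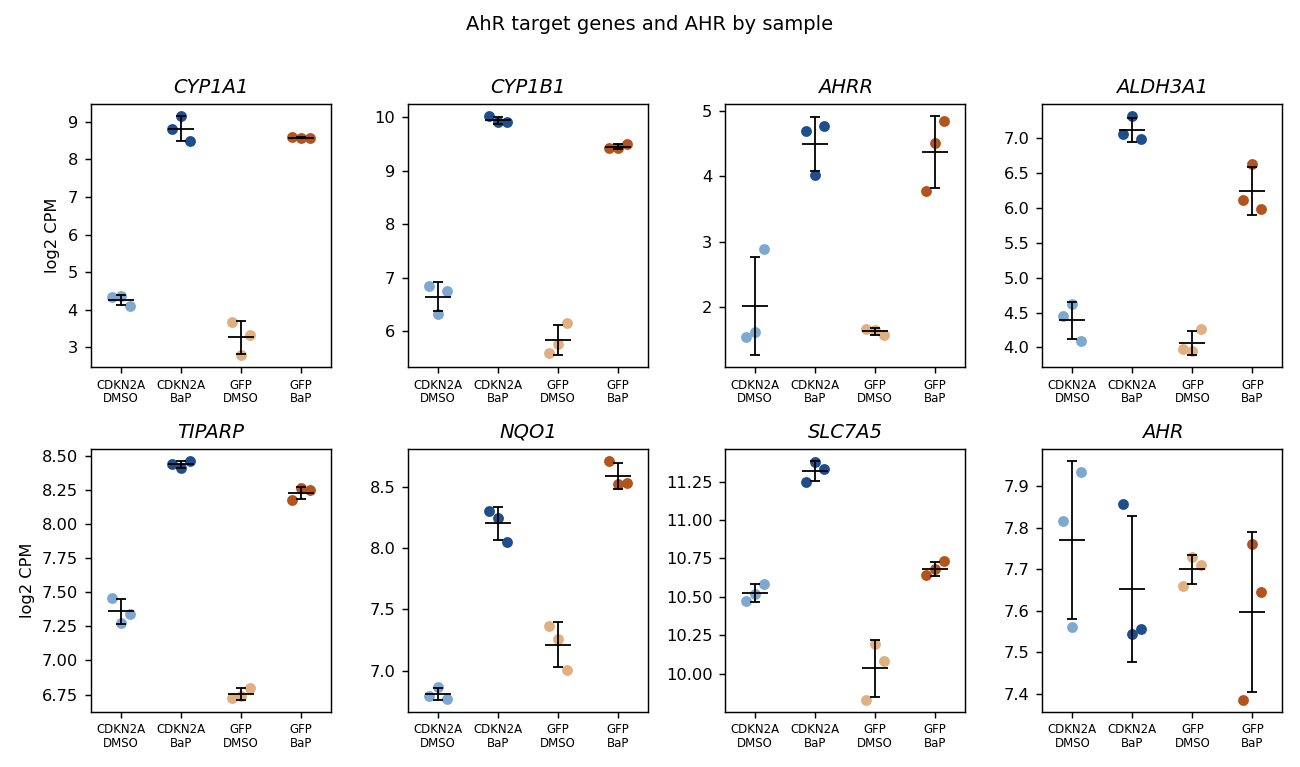
Log2 CPM (prior count 2) of 7 AhR targets and AHR in each sample, with the mean and SD of 3 samples, for CDKN2A knockout cells (blue) and GFP control cells (brown). Y axes differ between genes and do not start at 0. BaP samples lie above the DMSO samples of the same line for the 7 targets, while the AHR samples overlap.

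The receptor itself was not shown to change. AHR was at 223, 187 and 243 CPM with DMSO and at 230, 185 and 186 CPM with BaP, and the groups overlapped. Its log2 fold change was -0.09 (SE 0.10, adjusted p = 0.594). Of 7 members of the receptor complex, 3 fell (42.9%, against 8.89% of all genes tested) and none rose. These were the chaperones HSP90AA1 (-0.37, adjusted p = 2.84e-36) and HSP90AB1 (-0.29) and the co-chaperone PTGES3 (-0.36). After the GC correction HSP90AA1 (-0.25) and HSP90AB1 (-0.31) still passed and PTGES3 (-0.21) did not.

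The p53 targets passed the test about as often as genes in general. Of 28 listed, 5 rose, 1 fell and 22 did not pass, so that 21.4% were called against 18.6% of all genes tested, with a median log2 fold change of -0.02. CDKN1A (chr6:36644237-36655114), which codes for the cyclin-dependent kinase inhibitor p21, was at 220, 244 and 228 CPM with DMSO and at 497, 527 and 539 CPM with BaP. The BaP samples were 2.25-fold higher without overlap, a log2 fold change of 1.17 (SE 0.08, adjusted p = 5.19e-26). In GFP cells CDKN1A was at 169, 198 and 212 CPM with DMSO and at 326, 448 and 412 CPM with BaP, a log2 fold change of 0.97. The difference between the lines was 0.17 (95% interval -0.09 to 0.43, adjusted p = 0.889).

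GDF15, a stress-induced cytokine, had 3, 5 and 9 reads with DMSO and 25, 27 and 15 reads with BaP. It rose by 2.35 (SE 0.42, adjusted p = 5.64e-06), against 1.89 in GFP cells. SESN2, a stress-induced inhibitor of mTORC1 signalling, rose by 0.90 (adjusted p = 8.04e-05). Its change in GFP cells was 0.31 and the difference was 0.55 (adjusted p = 0.791). PHLDA3, which opposes AKT, rose by 0.45 and the death receptor TNFRSF10B by 0.30, and each passed in only 2 of the 6 fits that left out 1 sample (lowest 0.33 without BaP replicate 2 and 0.19 without BaP replicate 1). In GFP cells PHLDA3 was at 0.27 (adjusted p = 0.380) and TNFRSF10B at 0.26 (adjusted p = 0.212). ZMAT3, an RNA-binding p53 target, fell by 0.55, and by 0.56 in GFP cells. After the GC correction, CDKN1A (0.78, adjusted p = 1.77e-16) and GDF15 (1.73, adjusted p = 0.00226) still passed, while SESN2 (0.46), PHLDA3 (0.0072), TNFRSF10B (0.25) and ZMAT3 (-0.27) did not.

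Other p53 targets gave no call in the knockout line. MDM2, the ubiquitin ligase that p14ARF inhibits, was at 195, 197 and 207 CPM with DMSO and at 201, 182 and 207 CPM with BaP. The groups overlapped, with a log2 fold change of -0.02 (SE 0.10, adjusted p = 0.915). BAX, a pro-apoptotic BCL2 family member, was at 15.5, 12.2 and 21.2 CPM with DMSO and at 21.2, 21.3 and 30.0 CPM with BaP (log2 fold change 0.52, adjusted p = 0.208). GADD45A, a growth arrest gene, had a log2 fold change of -0.12 (adjusted p = 0.708). In GFP cells MDM2 was at -0.02 and GADD45A at -0.09, without a call, while BAX passed at 1.03 (adjusted p = 0.00799). DDB2 (0.64) and CCNG1 (-0.39) passed in GFP cells too, against 0.29 and -0.17 in the knockout line. Of the 28 listed, 4 rose and 2 fell in GFP cells, against 5.51% and 5.52% of all genes tested there. After the GC correction 1 rose and 0 fell there. No difference between the lines passed.

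In the pathway of the targeted gene, 3 of 17 members passed (17.6%), near the 18.6% of all genes tested. CDK6, a kinase that p16INK4A inhibits, was at 172, 162 and 151 CPM with DMSO and at 97.4, 93.7 and 91.5 CPM with BaP. It fell by 0.76 (SE 0.13, adjusted p = 1.07e-06), and by 0.47 in GFP cells, with a difference of -0.34 (adjusted p = 0.779). CDK4, the other such kinase, rose by 0.62 (with 1 sample left out it passed in 3 of 6 fits, lowest 0.54 without DMSO replicate 2) and the RB relative RBL1 fell by 0.44, and after the GC correction CDK6 (-0.48) alone of the pathway still passed, with CDK4 at 0.47 and RBL1 at -0.22. E2F1, a transcription factor that RB restrains, had a log2 fold change of 0.40 (adjusted p = 0.0790).

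**Figure D3:**
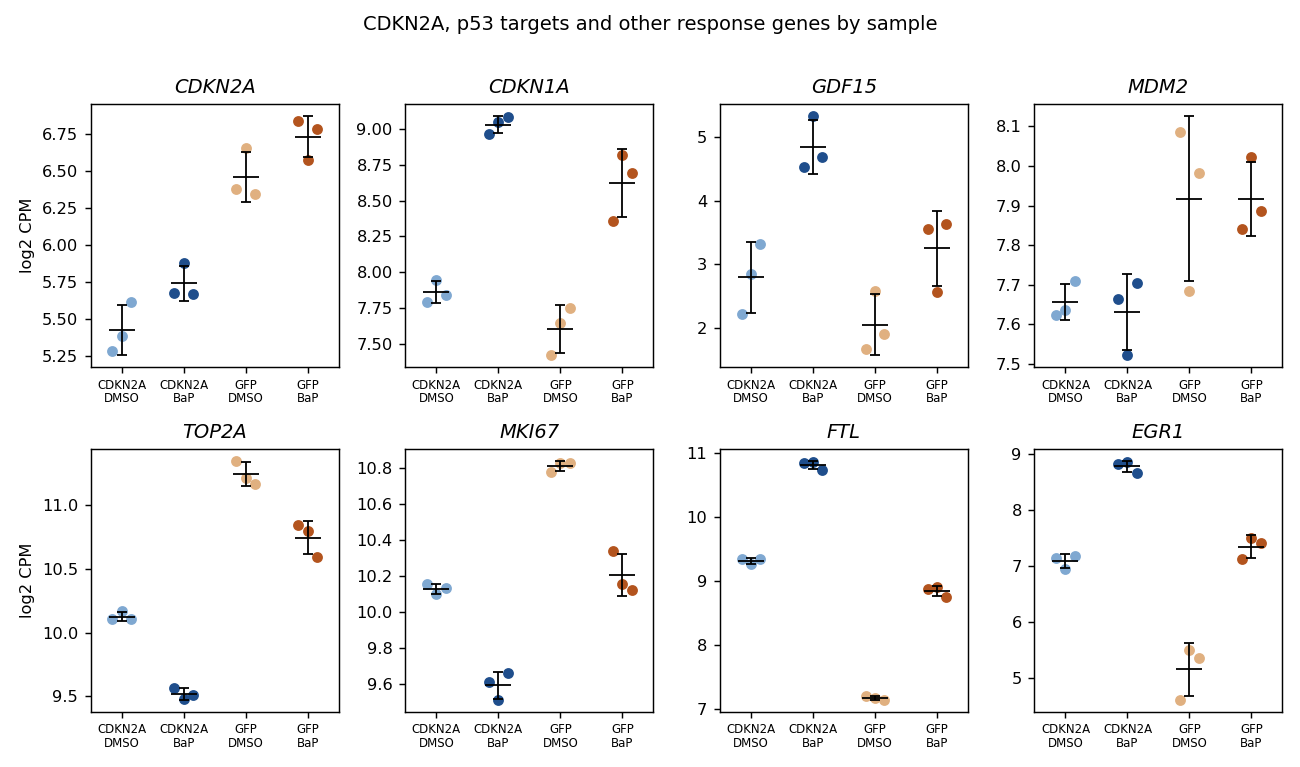
Log2 CPM (prior count 2) of CDKN2A, the p53 targets CDKN1A, GDF15 and MDM2, the proliferation genes TOP2A and MKI67, FTL and EGR1 in each sample, with the mean and SD of 3 samples per group. Y axes differ between genes and do not start at 0. In CDKN2A knockout cells BaP samples are separate from DMSO samples for CDKN1A, GDF15, TOP2A, MKI67, FTL and EGR1 and overlap for MDM2. For CDKN2A they are separate by a narrow gap, without a call.

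NRF2 targets rose, with 15 of 25 higher (60%, against 9.73% of all genes tested) and none lower. The median log2 fold change of the list was 0.46. In the GFP line 17 of 24 tested rose, against 5.51% of all genes tested there, with a median of 0.73, and none fell. None of the 25 tested for a difference between the lines passed that test. NRF2 is a transcription factor of the response to oxidants and electrophiles. In the knockout line the count was also 15 after the GC correction, while 1.68% of all genes tested rose. There PGD and TALDO1 were replaced by GCLM and ME1. FTL, the light chain of the iron store ferritin, was at 645, 613 and 651 CPM with DMSO and at 1829, 1860 and 1705 CPM with BaP. It rose by 1.5 (SE 0.05, adjusted p = 2.72e-58), and by 1.69 in GFP cells. The heavy chain gene FTH1 rose by 0.73. Both ferritin genes have processed pseudogenes whose reads the counting could have split.

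SRXN1, which repairs oxidised peroxiredoxins, was at 172, 178 and 192 CPM with DMSO and at 363, 336 and 371 CPM with BaP. It rose by 0.99 (SE 0.09, adjusted p = 3.81e-17), against 1.47 in GFP cells. The difference of -0.52 had a 95% interval of -0.82 to -0.23 before adjustment and did not pass over all genes (adjusted p = 0.556). OSGIN1, an oxidative stress-induced growth inhibitor, had the largest log2 fold change of the list (2.26). TXNRD1, a thioredoxin reductase, rose by 0.73, against 1.08 in GFP cells. GCLC, the catalytic subunit of glutathione synthesis, rose by 0.70, against 1.18 in GFP cells. Neither difference passed over all genes (adjusted p = 0.488 for TXNRD1 and 0.556 for GCLC). NFE2L2, which codes for NRF2 itself, had a log2 fold change of 0.07 (adjusted p = 0.727). SLC7A11, the cystine transporter, rose by 0.33, and by 0.64 after the GC correction. Its GFP value was -0.15, which the correction turned to 0.23, and the difference was 0.43 without it (adjusted p = 0.424).

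Among 20 tested genes of conjugation and efflux, 4 rose and none fell (20% called), near the 18.6% of all genes tested. EPHX1, the epoxide hydrolase of the path to the BaP diol epoxide, rose by 0.91 (SE 0.19, adjusted p = 0.00018). GSTP1, a glutathione transferase, rose by 0.80 and kept the call after the GC correction at 0.24. ABCC3, an efflux pump, rose by 0.78 and lost the call after the correction (0.48). Of 28 genes of nucleotide excision repair and translesion synthesis, the pathways that handle bulky adducts, DDB1 (0.26, adjusted p = 0.0175) alone passed. This was 3.57% of the list, against 18.6% of all genes tested. DDB1 passed in 3 of 6 fits with 1 sample left out (lowest 0.21 without DMSO replicate 3). None of the list passed after the correction (DDB1 at 0.11).

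Mitotic genes fell. Of 26 listed, 18 fell (69.2%, against 8.89% of all genes tested) and none rose. The median log2 fold change was -0.53. In the GFP line 18 fell, against 5.52% of all genes tested there, with a median of -0.41. TOP2A, a DNA topoisomerase of dividing cells, was at 1098, 1150 and 1098 CPM with DMSO and at 757, 711 and 729 CPM with BaP. It fell by 0.59 (SE 0.05, adjusted p = 5.8e-19), to 0.662 of the DMSO level, and by 0.36 after the GC correction. The proliferation marker MKI67 was at 1138, 1096 and 1122 CPM with DMSO and at 780, 730 and 807 CPM with BaP. It fell by 0.54, and by 0.58 in GFP cells. CENPE, a kinetochore motor, fell by 0.82 and CENPF, a kinetochore protein, by 0.54 (0.29 after the correction). These genes had low GC content (median of the list 42.7%). After the correction 17 of 26 fell, against 2.35% of all genes tested. Of the 17, 14 were among the 18 that fell without it. The median was then -0.40, with CENPE at -0.51. DNA replication genes moved both ways. Of 30, 4 rose and 7 fell (36.7% called, against 18.6% of all genes tested). After the correction 1 rose, MCM2, and 1 fell, MCM7, which had no call without it (-0.07, adjusted p = 0.693). None of the 7 falls kept the call. MCM2, a subunit of the replicative helicase, rose by 0.62 and by 0.28 after the correction.

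Immediate early genes rose, with 15 of 20 higher (75%, against 9.73% of all genes tested) and none lower. The median log2 fold change of the list was 0.73. EGR1, a growth-response transcription factor, was at 138, 121 and 143 CPM with DMSO and at 450, 459 and 404 CPM with BaP. It rose by 1.71 (SE 0.10, adjusted p = 4.1e-33), against 2.19 in GFP cells. FOS, a subunit of AP-1, had 51.7, 52.5 and 52.0 CPM with BaP against 11.2, 16.3 and 12.4 CPM with DMSO, a log2 fold change of 1.97. The phosphatase gene DUSP1 rose by 1.08. JUNB and JUND, further AP-1 subunits, rose by 1.10 and 1.0, and by GC-corrected values JUNB kept the call at 0.44 while JUND, at 0.12, did not. The median GC content of this list was 55.2%, and 9 of 20 rose after the correction, against 1.68% of all genes tested.

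Genes of inflammation and stress were examined next. IL1A, an epithelial alarm cytokine, was at 38.6, 33.7 and 39.0 CPM with DMSO and at 118, 88.0 and 115 CPM with BaP. It rose by 1.52 (SE 0.17, adjusted p = 9.48e-13), and by 1.79 after the GC correction. Of 13 inflammatory genes tested 2 rose and none fell (15.4% called), near the 18.6% of all genes tested. CXCL8, a neutrophil chemokine, was the other of the 2 (adjusted p = 0.0427), with a log2 fold change of 1.85. It was at 2.03 after the correction, where it missed the threshold (adjusted p = 0.0578), and it lost the call with edgeR and in 4 of 6 fits with 1 sample left out (lowest 0.62 without DMSO replicate 1). Of 20 targets of ATF4 and the unfolded protein response, 7 rose and none fell (35% called, against 18.6% of all genes tested). After the correction, where 1.68% of all genes tested rose, 3 of the list rose. These were SLC3A2, the partner subunit of SLC7A5 (0.82), the pseudokinase TRIB3 (0.94, or 0.39 after the correction) and the serine synthesis enzyme PHGDH (0.61). Of 23 interferon-stimulated genes, IRF7, ISG15 and OAS3 rose and 1 gene fell (17.4% called), also near the 18.6% of all genes tested. ISG15 passed in 3 of 6 fits with 1 sample left out and OAS3 in 1, and none of the 22 with a known GC content passed after the correction, which left IRF7 at 0.61, ISG15 at 0.72 and OAS3 at 0.29.

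Of 13 basal epithelial markers, 2 rose and 5 fell (53.8% called, against 18.6% of all genes tested). KRT5, a basal keratin, fell by 0.23 (adjusted p = 8.43e-11), with samples at 2683 to 2905 CPM with DMSO and at 2267 to 2436 CPM with BaP. KRT14, its partner, was at 281, 280 and 285 CPM with DMSO and at 201, 180 and 208 CPM with BaP. It fell by 0.52 in the knockout line and by 1.13 in the GFP line. The difference of 0.57 had a 95% interval of 0.29 to 0.85 before adjustment and missed the threshold over all genes (adjusted p = 0.223). KRT17, a stress keratin, rose by 0.65. After the GC correction KRT5 was at -0.57, KRT14 at -1.01 and KRT17 at 0.27, all past the threshold. Of the 13 markers 1 rose and 5 fell after it, against 1.68% and 2.35% of all genes tested. Among the 5 were SFN, which had risen by 0.30 without the correction, and KRT19, which had no call without it. Of 14 genes of squamous differentiation S100A9, a calprotectin subunit, alone passed (7.14% called, against 18.6% of all genes tested). Its log2 fold change was 0.79. In GFP cells S100A9 was at 0.05 (adjusted p = 0.962), and the difference of 0.70 did not pass (adjusted p = 0.855). KRT16, a keratin of activated epithelium, was at 0.24 (adjusted p = 0.51). Of 23 matrix and adhesion genes, 6 rose and 9 fell (65.2% called, against 18.6% of all genes tested). Among the falls, the integrin subunits ITGA6 (-0.52) and ITGB1 (-0.48) kept the call after the correction at -0.36 and -0.25. The integrin subunits ITGA3 and ITGB4 were each higher by 0.34 and turned to -0.22 and -0.29 after it. After the correction 13 of 21 members of the list fell, against 2.35% of all genes tested, and none rose. Of 21 cholesterol synthesis genes, 6 rose and 5 fell (52.4% called, against 18.6% of all genes tested). Among the rises were LSS (0.55), MVD (0.73) and DHCR7 (0.47), which code for enzymes of the pathway. LSS, MVD and DHCR7 lost the call after the correction (0.15, 0.098 and 0.065).

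**Figure D4:**
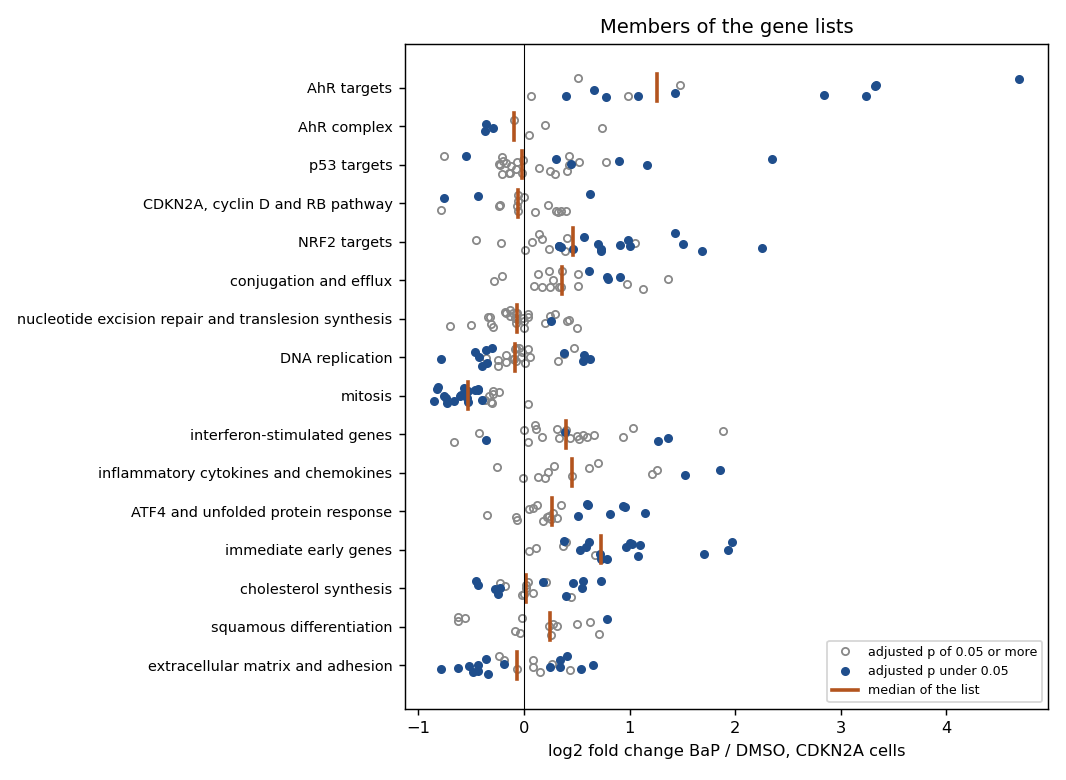
Log2 fold change of BaP over DMSO in CDKN2A knockout cells (x axis) for each tested member of 16 gene lists. Filled points passed an adjusted p under 0.05, open points did not, and the bar is the median of the list. AhR targets reach 4.69 and have the highest median (1.26), and mitotic genes have the lowest (-0.53).

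The 10 largest falls that met the naming rule were of genes with few reads. HMGN5, a nucleosome-binding protein, was at 25.8, 27.5 and 26.6 CPM with DMSO and at 11.0, 14.2 and 0 CPM with BaP. It fell by 2.11 (SE 0.48, adjusted p = 0.00044), and by 1.10 without BaP replicate 3. STARD13, a GTPase-activating protein, fell by 1.60, and without BaP replicate 1 the value was -1.16 and missed the threshold. VIM, the intermediate filament vimentin, had 24, 15 and 20 reads with DMSO and 6, 5 and 6 reads with BaP and fell by 1.37, and missed the threshold without BaP replicate 1 (-1.04). FBXW8 and SPC25, a ubiquitin ligase subunit and a kinetochore protein, fell by 1.45 and 1.44, and FBXW8 missed the threshold without BaP replicate 3 (-0.90) and without BaP replicate 2. These 5 still passed after the GC correction. ANXA2P1, VCPKMT, SLC25A21, DNAH6 and RPL7 did not, with values of -1.27 to -1.48 before it and -1.0 to -1.37 after it. ANXA2P1 and RPL7 share sequence with near-identical copies. These last 5 passed in 1 or 2 of the 6 fits with 1 sample left out. All 10 were picked by their knockout values, so their differences from the GFP line are given as description only. The difference was -1.82 for HMGN5 (95% interval -3.05 to -0.59 before adjustment), -1.53 for VCPKMT, -1.22 for FBXW8, -1.17 for SPC25 and -1.11 for STARD13. For ANXA2P1, VIM, SLC25A21, DNAH6 and RPL7 it was -0.67 to -0.93. None passed over all genes (lowest adjusted p = 0.669).

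The responses of the knockout and GFP lines were compared over the 13376 genes tested in both, in samples they do not share. Of the calls, 989 were made in both lines, which is 37.1% of those in the knockout line and 65.0% of those in the GFP line. Of these 989, 987 had the same direction. Of all 2664 calls in the knockout line 94.0% had the same sign in the GFP line, against 72.4% of all genes tested in both. The correlation of the log2 fold changes across genes was 0.43, and 0.67 over the 9366 genes averaging 10 reads or more per sample (Pearson). Genes are not independent replicates, and the GC trend is common to both lines.

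**Figure D5:**
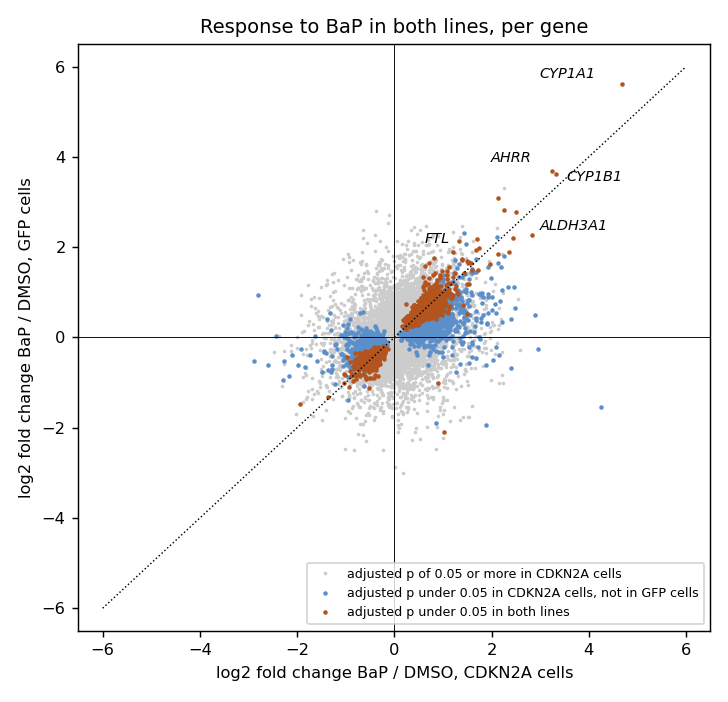
Log2 fold change of BaP over DMSO per gene in CDKN2A knockout cells (x axis) and GFP control cells (y axis), over 13376 genes. The dotted line marks equal change. Of the genes named in the plot, CYP1A1 (x 4.69, y 5.62), CYP1B1, AHRR and FTL lie above it and ALDH3A1 (x 2.84, y 2.27) lies below it. No difference between the lines passed for these genes.

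The difference between the lines in the response to BaP passed for 3 of 14341 genes (0.0209%, limma-voom interaction term), higher in the knockout line for 2 (0.0139%) and lower for 1 (0.00697%), while 888 had an unadjusted p under 0.05. RPPH1 and RNR2, non-coding RNAs with high counts, were among the 3. RPPH1, the RNA of ribonuclease P, took 0.405%, 0.485% and 0.403% of reads with BaP and 0.173%, 0.177% and 0.157% with DMSO in the knockout line. Its log2 fold change was 1.31 in the knockout line and 0.96 in the GFP line, a difference of 0.32 (SE 0.06, adjusted p = 0.0139). RNR2, the mitochondrial large ribosomal RNA, took 0.449%, 0.425% and 0.421% of reads with BaP and 0.631%, 0.632% and 0.628% with DMSO. It fell by 0.55 in the knockout line and by 0.33 in the GFP line, a difference of -0.27 (SE 0.05, adjusted p = 0.0014). RPPH1 and RNR2 did not pass under edgeR (adjusted p = 0.287 and 0.248) or DESeq2.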

How the data were processed

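RNA of AALE cells was profiled by SFL sequencing. The authors trimmed adapters (cutadapt 1.12), aligned reads to hg19 (STAR 2.5.2b), counted them in RefSeq genes with featureCounts and deposited raw counts per gene, 1 file per sample. The strand setting is not given in the sources used here, so reads of overlapping and antisense genes cannot be told apart. Groups and replicate numbers come from the sample labels. Counts of the 6 CDKN2A samples (genes with a mean count above 1) were TMM-normalised (edgeR 4.0.16) and compared by limma 3.58.1 on voom-transformed counts, 2-sided, with Benjamini-Hochberg adjustment over all genes tested and a threshold of 0.05. GFP cells were treated alike, and the difference was an interaction term over 12 samples. CPM are of each line's own normalisation, and log2 CPM used a prior count of 2. Means carry the SD of 3 samples.

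Gene lists come from general knowledge. Members, lists and tests were chosen with earlier results of these data known. Named genes are CDKN2A, CYP1A1, CDKN1A, members of the AhR and p53 lists, the 10 largest rises and falls past 0.05 (mean count of at least 10, no overlap of the groups), up to 10 genes past the interaction test, and up to 4 members of each other list with the smallest adjusted p. Further members were chosen after their values were seen. The correction subtracted, per sample, a loess fit (span 0.3) on GC content and exon length, taken from GENCODE models on GRCh37 (86.9% of symbols matched). The alternatives comprised DESeq2 1.42.0, the quasi-likelihood test of edgeR, other scalings and filters, the replicate block and leaving out each sample. Replicates of a group differed by more than sampling noise (chi-square per degree of freedom 1.19 to 1.51). Intervals are pointwise at 95%. The scripts were tested on simulated data. Other treatments and lines were not analysed here, and a few genes that met the naming rule are not reported here.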

Additional observations from a re-analysis of the deposited data

Results flagged for a closer look

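The response to BaP differed between the CDKN2A knockout line and the GFP control line for 3 genes by the interaction term of limma-voom. Of these, RPPH1 had a difference of log2 fold changes of 0.32 (SE 0.06, adjusted p = 0.0139) and RNR2 of -0.27 (SE 0.05, adjusted p = 0.0014). With each of the 12 samples left out, RPPH1 lay between 0.21 and 0.45 and lost the call in 2 of 12 fits, and RNR2 lay between -0.29 and -0.15 and lost it in 5.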

How the results depend on the processing

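The number of genes changed by BaP in the knockout line was 960 with DESeq2 and 545 with the GC content and length correction, against 2686. Without 1 sample it lay between 1732 (without DMSO replicate 1) and 2308, and it was 1778 without BaP replicate 2. For the GFP line these counts were 451, 259 and 917 to 1371 (917 without DMSO replicate 1, 959 without BaP replicate 2), against 1527. Scaling by library size alone gave 2609 genes with 58.5% higher in the knockout line and 1521 with 66.6% higher in the GFP line. The difference between the lines gave 6 genes with edgeR, 0 with DESeq2, 5 with DESeq2 size factors, and 2 to 7 with 1 sample left out (5 without CDKN2A BaP replicate 3 or DMSO replicate 3, 7 without GFP DMSO replicate 3).

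Deviations of same-numbered samples correlated at 0.0371 to 0.067 in the knockout line and 0.00229 to 0.0718 in the GFP line. Those of samples with different numbers correlated at -0.0499 to -0.00955 and at -0.0622 to 0.0197. The ranges were apart in the knockout line and overlapped in the GFP line. All were small, and whether the numbers pair the samples was not tested. With the replicate block 2749, 2043 and 10 genes passed in the knockout line, the GFP line and the difference, against 2686, 1527 and 3 without it. With block and GC correction 577, 385 and 8 passed.

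Of 83 called genes that met the naming rule, 80 kept their direction in every alternative that gave them a value. Of these, 44 also kept the call. RPPH1 and RNR2 had no value under the GC correction (81 of 83 had one), and 80 to 82 had one under 3 other alternatives. The call was lost by 30 under the correction, 21 with DESeq2, 5 with the block and 1 with edgeR. The exceptions in direction, under the GC correction, were TK1 (-0.0074), ITGA3 (-0.22; -0.22 with the block) and ITGB4 (-0.29; -0.29 with the block). Genes without a call changed sign too. Under the correction, without and with the block, CDKN2A was at -0.034 and -0.024, AHR at 0.18 and 0.18, MDM2 at 0.24 and 0.24, E2F1 at -0.16 and -0.18 and KRT16 at -0.26 and -0.32. MDM2 was at 0.0065 by library size alone, at 0.0035 with genes of 10 or more mean reads, and between -0.0498 and 0.023 with 1 sample left out. NFE2L2 lay between -0.0895 and 0.15 with 1 sample left out. The causes were not tested. With 3 samples per group at this depth, small changes of genes with few reads were not detectable.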
